A study of Homo sapiens with 6 samples.

Results

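The 10 genes described here are the stress-induced mTORC1 inhibitors SESN1, SESN2, SESN3 and DDIT4 and the core pathway genes TSC1, TSC2, MTOR, RPTOR, RHEB and DEPDC5. They are given by name, with no measured value in the rule, though earlier results of these data were known when the list was drawn up, and all 10 were found by Ensembl identifier among the 13885 genes of the authors' deposited table. The study measured poly(A)+ RNA by strand-specific RNA-seq in BE(2)-C, an established human neuroblastoma cell line given as WT. In the siPCIF1 group (n = 3), cells were transfected for 24 h with 1 siRNA product against PCIF1 and then given 10 µM ATRA for 4 days. In the siScramble group (n = 3), a scrambled control siRNA took its place and the ATRA treatment was the same. ATRA, all-trans retinoic acid, is used to drive neuroblastoma cells towards a neuron-like state, so every value below belongs to ATRA-treated cells. PCIF1 is the enzyme that methylates the first transcribed adenosine next to the mRNA cap, giving m6Am. Whether the 3 samples per group were separate cultures is not said, and all come from 1 cell line. The p-values therefore measure the spread between these samples, which may be technical.

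mTORC1 is a protein kinase complex on the lysosome surface that promotes protein synthesis and restrains autophagy when amino acids, growth factors and energy are sufficient. Amino acids act through the Rag GTPases, which are held in check by GATOR1, and GATOR1 is in turn opposed by GATOR2. Growth factors act through AKT and the TSC complex, which switches off the small GTPase RHEB, the direct activator of the kinase. Sestrins bind GATOR2 and lower mTORC1 activity, SESN2 being a leucine sensor, and DDIT4 (also called REDD1) acts through the TSC complex. All of these steps are set largely by protein activity, and the data here are transcript levels.

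The authors' deposited table gives, for each gene, the mean normalised count over all 6 libraries, a log2 fold change with its SE, a Wald statistic, a p-value and an adjusted p-value from DESeq2. It gives no value per library, so group means, SDs and the overlap of groups cannot be stated. Fold changes are written as siPCIF1 over siScramble. The table does not spell out its direction, and it was taken from PCIF1 itself, which had a log2 fold change of -0.82 (SE 0.19, p adjusted by DESeq2 = 0.000167) according to the authors' deposited table. That is 56.6% of the siScramble level (95% interval 43.7 to 73.4%). The order of names given to the table, read plainly, would run the other way. If it did, every sign below would turn, and PCIF1 would have been higher after its own siRNA. Of all 13885 genes in the authors' deposited table, 34.0% passed an adjusted p of 0.05, 16.3% higher and 17.7% lower in siPCIF1 cells. Of 15 neuroblastoma or sympathetic markers, 15 were in the table with a summed mean count of 33168, against 4 of 12 epithelial, endothelial or blood markers with 205 and 7 of 10 fibroblast or Schwann markers with 1121. In siPCIF1 cells 7 neuroblastoma or sympathetic markers were higher and 2 lower. Of the other markers PDGFRB, which made up 718 of the summed fibroblast or Schwann count, was lower, at a log2 fold change of -0.94 (p adjusted by DESeq2 = 1.86e-07) in the authors' deposited table. S100B and CD14 were higher, at log2 fold changes of 1.21 and 0.90 in the authors' deposited table (p adjusted by DESeq2 = 7.37e-07 and 3.17e-05). The markers' part in the results below was not tested.

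The start sites of the 4 stress-induced genes are shown because PCIF1 acts on transcripts that begin with adenosine. The RefSeq start base (GRCh38.p14) is in capitals, with the bases around it in lower case, read 5′ to 3′ on the gene's own strand.
SESN1: cgggccccgccgccccgccaGctccgcggc
SESN2: ggtgtcagagcccggcgagcGctggcagtt
SESN3: cgggtggggagctgggctccAgtgagcaca
DDIT4: ctccgcgctggtgctagggcGcagcaggcc
These windows lie at chr6:109094837-109094866 on the minus strand for SESN1, chr1:28259498-28259527 on the plus strand for SESN2, chr11:95232466-95232495 on the minus strand for SESN3 and chr10:72273904-72273933 on the plus strand for DDIT4. Only SESN3 has an A at this base. Over the RefSeq entries nearest the GENCODE start of each of the 10 genes, 1 starts with A, and 46.2% of the 14402 RefSeq promoter entries of genes in the table do. In the GENCODE 29 main transcripts 2 of the 10 start with A, TSC1 and DEPDC5, and 29.9% of all genes of the table do. The 2 annotations thus name different genes, the RefSeq start of SESN3 lying 1278 bases from that of its GENCODE main transcript. Which start these cells used was not analysed here.

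The 4 stress-induced inhibitors split into opposite directions. SESN2 and DDIT4 fell in siPCIF1 cells, to 46.3% and 54.7% of the siScramble level, while SESN1 rose to 182% and SESN3 to 139% of it. None of the 6 core genes passed the test. In all, 4 of the 10 genes passed (2 higher and 2 lower), a share of 40% that lies near the 34.0% of all genes. The median log2 fold change of the 10 genes was 0.03, against 0.01 over all genes in the authors' deposited table.

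SESN2 (ENSG00000130766.4, hg38, chromosome 1, 28259527 to 28282491, plus strand in GENCODE 29) is a stress-induced leucine sensor of the sestrin family. Its mean normalised count over both groups was 834 in the authors' deposited table, or 242 per kilobase of its main transcript. Its log2 fold change there was -1.11 (SE 0.16, 95% interval -1.43 to -0.79), with a DESeq2 adjusted p of 3.85e-10. The siPCIF1 level was thus 46.3% of the siScramble level (95% interval 37.1 to 57.7%), a 2.16-fold lower value. Ranked by p among the genes that were lower, SESN2 stood at 239, and 2.28% of all genes had a fold change at or below its own.

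SESN1 (ENSG00000080546.13, chromosome 6, 108986437 to 109094819, minus strand), another sestrin, was less abundant than SESN2 over both groups. Its mean normalised count was 95.7 in the authors' deposited table, or 27.3 per kilobase. Its log2 fold change, from the authors' deposited table, was 0.87 (SE 0.20, 95% interval 0.47 to 1.26, p adjusted by DESeq2 = 0.000197). This corresponds to 182% of the siScramble level (95% interval 138 to 240%).

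SESN3 (ENSG00000149212.11, chromosome 11, 95165513 to 95232541, minus strand), a sestrin known as a target of FOXO factors, had a mean normalised count of 339 in the authors' deposited table. Its transcript is long, so that this is 35.5 per kilobase. The log2 fold change, from the authors' deposited table, was 0.47 (SE 0.17, 95% interval 0.15 to 0.80) with a DESeq2 adjusted p of 0.0180, or 139% of the siScramble level (95% interval 111 to 174%). The intervals of SESN1 and SESN3 overlap, and neither overlaps that of SESN2. Per kilobase over both groups, SESN2 was the most abundant of the 3 sestrins, and SESN3 and SESN1 were close to each other.

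DDIT4 (ENSG00000168209.4, chromosome 10, 72273920 to 72276036, plus strand), induced by hypoxia, glucocorticoids and DNA damage, was the most abundant of the 10 genes. Its mean normalised count was 2367 in the authors' deposited table, or 1354 per kilobase of transcript. The log2 fold change, from the authors' deposited table, was -0.87 (SE 0.15, 95% interval -1.16 to -0.58) with a DESeq2 adjusted p of 9.25e-08. The siPCIF1 level was 54.7% of the siScramble level (95% interval 44.8 to 66.8%), a 1.83-fold lower value. Among genes that were lower, DDIT4 ranked 372 by p. Its relative DDIT4L, listed beside it, is not among the genes of the table.

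**Figure D1:**
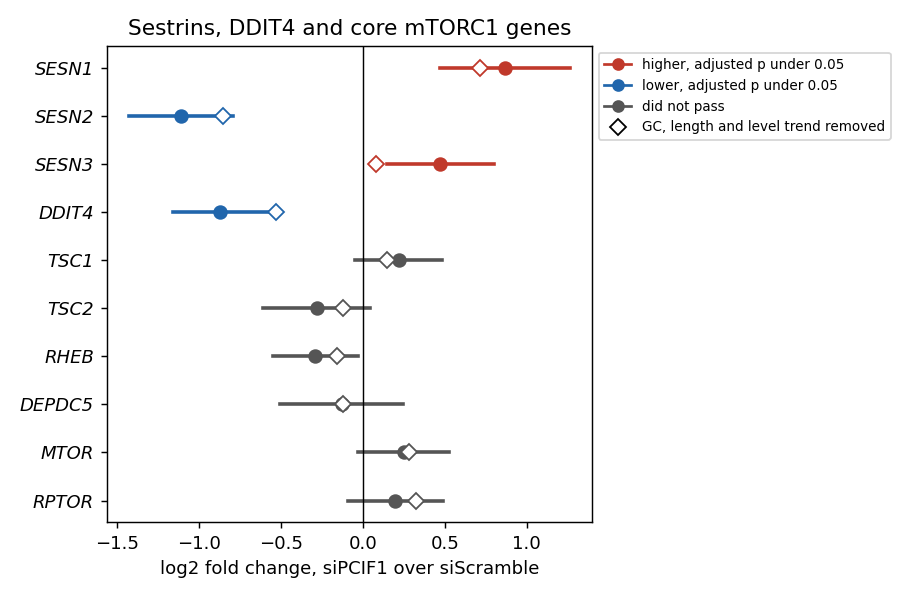
Log2 fold change, siPCIF1 over siScramble, of the 10 genes from the authors' deposited table, with filled points for the estimate, bars for the 95% interval and open diamonds for the value after the trend with GC content, length and mean count was removed. SESN2 at -1.11 and DDIT4 at -0.87 lie below 0, SESN1 at 0.87 and SESN3 at 0.47 lie above it, and the 6 core genes lie between -0.29 and 0.25. The diamond of SESN3 lies at 0.08, near 0.

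The TSC complex, which turns RHEB off, had both of its larger subunits measured. TSC1 (ENSG00000165699.14, chromosome 9, 132891348 to 132946874, minus strand), the scaffold hamartin, had a log2 fold change of 0.22 (SE 0.14, 95% interval -0.05 to 0.48, p adjusted by DESeq2 = 0.211) at a mean normalised count of 501 in the authors' deposited table. TSC2 (ENSG00000103197.17, chromosome 16, 2047465 to 2089487, plus strand), tuberin, carries the GTPase-activating domain. Its log2 fold change, from the authors' deposited table, was -0.28 (SE 0.17, 95% interval -0.61 to 0.04, p adjusted by DESeq2 = 0.181) at a mean normalised count of 572. Neither passed, and the intervals leave room for TSC1 at 96.8 to 140% and TSC2 at 65.6 to 103% of the siScramble level.

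RHEB (ENSG00000106615.9, chromosome 7, 151466012 to 151520120, minus strand), the GTPase that activates the kinase, came nearest to the threshold among the core genes. Its mean normalised count was 901, or 434 per kilobase, in the authors' deposited table. The log2 fold change, from the authors' deposited table, was -0.29 (SE 0.13, 95% interval -0.55 to -0.03) with a p of 0.0287 and a DESeq2 adjusted p of 0.0756. This is 81.8% of the siScramble level (95% interval 68.3 to 97.9%), and RHEB passed only where the threshold was 0.1. It was the only one of the 6 core genes with an unadjusted p under 0.05. RHEB has 3 named pseudogenes in the annotation, none of them in the table, and the sources used here do not say how reads shared with them were counted.

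MTOR (ENSG00000198793.12, chromosome 1, 11106535 to 11262507, minus strand), the kinase itself, had a log2 fold change of 0.25 (SE 0.14, 95% interval -0.03 to 0.53, p adjusted by DESeq2 = 0.166) in the authors' deposited table. RPTOR (ENSG00000141564.13, chromosome 17, 80544819 to 80966371, plus strand), raptor, recruits the substrates of the kinase. Its log2 fold change, from the authors' deposited table, was 0.20 (SE 0.15, 95% interval -0.09 to 0.49, p adjusted by DESeq2 = 0.312). Their mean normalised counts were 767 and 478, or 88.4 and 74.5 per kilobase. The upper ends of the intervals were 144% of the siScramble level for MTOR and 141% for RPTOR.

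DEPDC5 (ENSG00000100150.17, chromosome 22, 31753867 to 31908033, plus strand), the GATOR1 subunit that contacts the Rag GTPases, had the lowest level per kilobase of the 10 genes, at 18.5. At its mean normalised count of 98.6 in the authors' deposited table, the log2 fold change was -0.13 (SE 0.19, 95% interval -0.51 to 0.25, p adjusted by DESeq2 = 0.640). The interval spans 70.4 to 119% of the siScramble level. For 7 of the 10 genes (SESN1, SESN3, DDIT4, TSC1, TSC2, MTOR and RPTOR), exons overlap those of a gene on the opposite strand, and for DEPDC5 those of a gene on its own strand. The library kit marks strand, but the sources used here do not say how strand was treated in counting, so reads of such pairs may not be separated. Of the overlapping genes only NTHL1 and PKD1, both opposite TSC2, are themselves among the genes of the table.

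**Figure D2:**
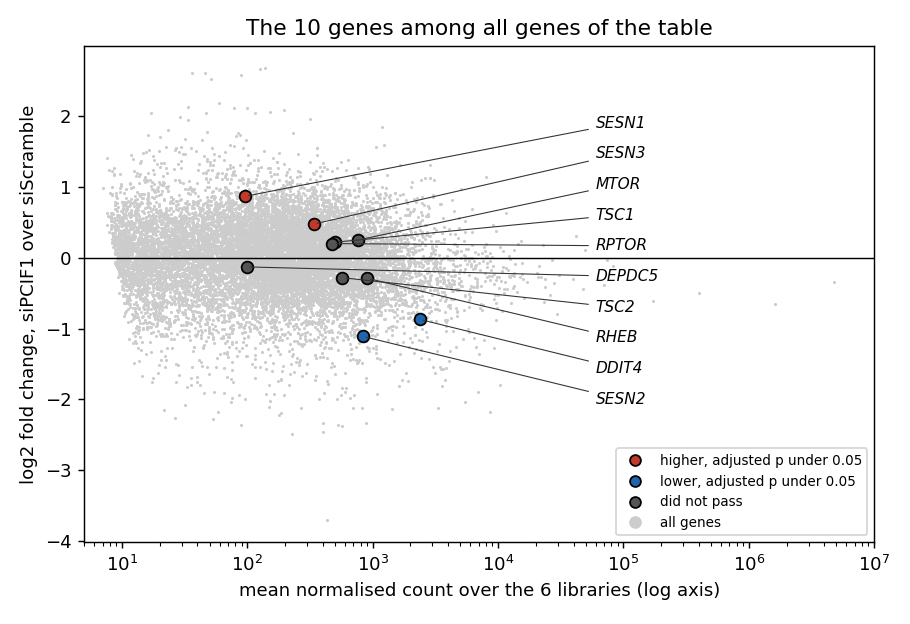
Log2 fold change, siPCIF1 over siScramble, against the mean normalised count over the 6 libraries (log axis) for all 13885 genes in grey, with the 10 genes labelled and coloured by their call. SESN2 and DDIT4 lie below most of the cloud at mean counts of 834 and 2367, SESN1 lies above most of it at 95.7, and the core genes lie in the middle of the cloud.

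The members' fold changes were also set against a trend that runs through the whole table with transcript composition. When all matched genes were put in 5 bins of about equal size by the GC content of the main transcript, the median log2 fold change was 0.33 in the bin lowest in GC and -0.24 in the bin highest in GC. SESN3, at 37.1% GC, belongs to the lowest bin, and SESN1, at 43.4%, to the next, whose median was 0.15. DDIT4, at 58.1%, belongs to the second highest bin, with a median of -0.13, and SESN2, at 59.5%, to the highest. Each of the 4 genes that passed therefore moved in the direction of its own bin.

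A smooth trend with GC content, transcript length and mean count, fitted over all 13877 matched genes, was then taken from the fold changes of the authors' deposited table. After this 25.1% of genes passed, and 3 of the 10 members did. On the log2 scale SESN2 then stood at -0.85 (adjusted p = 3.57e-06), SESN1 at 0.71 (adjusted p = 0.00352) and DDIT4 at -0.53 (adjusted p = 0.00284). SESN3 was left with 0.08 (adjusted p = 0.786), since the trend alone gave 0.39 for a transcript like it. The core genes did not pass here either, RPTOR coming nearest at 0.33 (adjusted p = 0.0920) and MTOR standing at 0.28 (adjusted p = 0.137). RHEB moved to -0.16 (adjusted p = 0.431). PCIF1 stood at -0.60 (adjusted p = 0.0113) on the same scale.

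**Figure D3:**
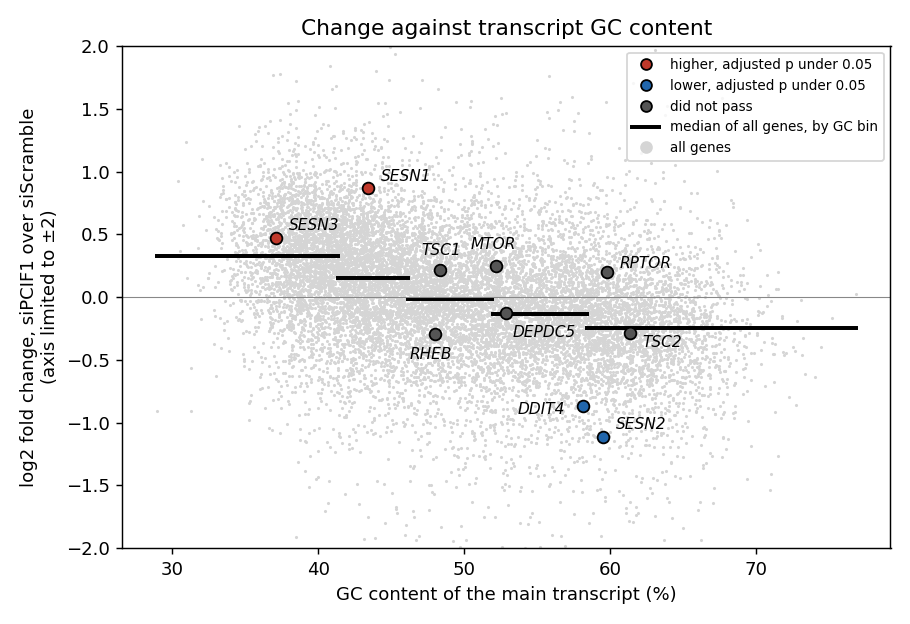
Log2 fold change, siPCIF1 over siScramble, (axis limited to ±2) against the GC content of the main transcript in percent, with all genes in grey, the medians of the 5 GC bins and the 10 genes marked. The bins run downwards, their medians being 0.33 at the low end and -0.24 at the high end, SESN3 lies at 0.47 in a bin with a median of 0.33, and SESN2 at -1.11 in a bin with a median of -0.24.

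The Wald statistics of the table were broad, with a robust SD of 2.44 over all genes where pure noise would give about 1. Changes in many genes would widen them as well, and dividing by 2.44 counts all of the extra breadth as noise. How much of it is noise was not tested. With the statistics divided by 2.44, 0.972% of genes passed and none of the 10 members did, 2 keeping an unadjusted p under 0.05. SESN2 then had an adjusted p of 0.226, DDIT4 of 0.407, SESN1 of 0.752 and SESN3 of 0.944. Tested against an absolute log2 change of 0.3 in place of 0, 11.0% of genes passed, among them SESN1, SESN2 and DDIT4.

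Beside the 10 members, a wider list of the mTORC1 pathway was read in the same table. Of 100 listed genes 92 were measured, 19 of which rose and 20 of which fell in siPCIF1 cells. The share that passed was 42.4%, against 34.0% of all genes, and the median log2 fold change was 0.02 in the authors' deposited table. Without the group of stress regulators, which was listed with earlier results known, 32 of 82 measured genes passed, or 39.0%. With the trend removed 26 of the 92 passed, or 28.3%, against 25.1% of all genes. These 26 include 7 of the 10 measured stress regulators, or 70%, so the share does not leave that group out. It is therefore not read as an excess over all genes. Without the 10 members, 82 genes were measured, with 17 higher and 18 lower.

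Around the core genes, the kinase complex itself held no gene that passed, where 34.0% of all genes did. The groups here hold 3 to 5 measured genes each, so no single count is read as a difference from that share. Of its 5 measured subunits none had an unadjusted p under 0.05 by DESeq2, with MLST8, a subunit shared with mTORC2, at a log2 fold change of -0.06 (SE 0.28) in the authors' deposited table. The 3 GATOR1 genes gave the same count of 0, also at an unadjusted p under 0.05. In the group of TSC complex and RHEB, 1 of 5 genes passed, the RHEB paralogue RHEBL1, at a log2 fold change of -0.71 (SE 0.22, p adjusted by DESeq2 = 0.00661) in the authors' deposited table. Of 3 mTORC2 subunits RICTOR, which defines that complex, rose by 0.74 (SE 0.19, p adjusted by DESeq2 = 0.000737) on the log2 scale of the authors' deposited table. RHEBL1 and RICTOR both missed the threshold once the trend was removed, at adjusted p = 0.0592 and 0.235.

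In the amino acid branch, on which the sestrins act, 7 of 28 measured genes passed over 6 groups, a share of 25.0% that does not exceed the 34.0% of all genes. In GATOR2, the complex that sestrins bind, 3 of 5 genes passed. MIOS rose by 0.63 (SE 0.16, p adjusted by DESeq2 = 0.000861) and SEH1L by 0.64 (SE 0.17, p adjusted by DESeq2 = 0.00119) on the log2 scale of the authors' deposited table. SEC13, which with SEH1L also belongs to the nuclear pore, fell by 0.72 (SE 0.14, p adjusted by DESeq2 = 2.54e-06) on that scale in the authors' deposited table. All 3 also passed with the trend removed. Of the 4 KICSTOR genes, which tether GATOR1 to the lysosome, KICS2 (C12orf66 in GENCODE 29) rose by 0.99 on the log2 scale (SE 0.22, p adjusted by DESeq2 = 7.77e-05) in the authors' deposited table. Among 9 Rag GTPase and Ragulator genes 2 rose, RRAGD with a log2 fold change of 0.71 (SE 0.15, p adjusted by DESeq2 = 4.25e-05) and LAMTOR3 with one of 0.44 (SE 0.17, p adjusted by DESeq2 = 0.0365) in the authors' deposited table. In the folliculin complex, which activates RagC and RagD, FNIP2 rose by 0.59 on the log2 scale (SE 0.17, p adjusted by DESeq2 = 0.00298) in the authors' deposited table, and FLCN and FNIP1 did not pass. Among 4 other amino acid sensors or their partners none passed, and none had an unadjusted p under 0.05 by DESeq2. With the trend removed LAMTOR3 and FNIP2 no longer passed, and the sensor SAR1B did, as lower, at a log2 value of -0.57.

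Of 8 genes for AMPK, the kinase that restrains mTORC1 when energy is low, and its activator LKB1, 2 rose and 4 fell, where 16.3% of all genes were higher and 17.7% lower. With the trend removed 1 of the 8 passed, where 25.1% of all genes did. STK11, which encodes LKB1, had a log2 fold change of -0.68 (SE 0.15, p adjusted by DESeq2 = 0.000104) in the authors' deposited table. The regulatory subunit genes PRKAB2, PRKAG1 and PRKAB1 had log2 fold changes of -0.57, -0.51 and -0.40, and the catalytic PRKAA1 and the regulatory PRKAG2 had ones of 0.55 and 0.46, in the authors' deposited table. The gene that still passed was PRKAB2. Of 12 genes for PI3K and AKT input, 3 rose and 1 fell, a share of 33.3% that lies near the 34.0% of all genes. PIK3R1, the p85 regulatory subunit, rose by 1.17 on the log2 scale (SE 0.16, p adjusted by DESeq2 = 2.85e-12) in the authors' deposited table, to 225% of the siScramble level. IGF1R and the catalytic subunit gene PIK3CA stood at 0.54 and 0.59, and AKT1 at -0.37, by the log2 fold changes of the authors' deposited table, and PIK3CA and AKT1 no longer passed with the trend removed.

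Among 17 genes for substrates and effectors of mTORC1, 3 rose and 6 fell, or 52.9% against 34.0% of all genes. With the trend removed 7 of the 17 passed, or 41.2% against 25.1%. Of these 7, 5 had passed as deposited, and the 2 gained, TFEB and LARP1, were higher. EIF4EBP1, the translation repressor that the kinase inactivates, had a log2 fold change of -1.42 (SE 0.17, p adjusted by DESeq2 = 5.17e-15) in the authors' deposited table, or 37.3% of the siScramble level. GRB10, an adaptor phosphorylated by mTORC1, had a log2 fold change of -1.47 (SE 0.25, p adjusted by DESeq2 = 1.24e-07) in the authors' deposited table, at a mean normalised count of only 42.8. MAF1, a repressor of RNA polymerase III, and TFE3, a lysosomal gene regulator, had log2 fold changes of -0.79 and -0.77 in the authors' deposited table. The S6 kinase gene RPS6KB1, the cap-binding EIF4E and the translation inhibitor PDCD4 had log2 fold changes of 0.59, 0.56 and 0.54 in the authors' deposited table. Neither these 3 nor ULK1, at -0.44 in the authors' deposited table, passed with the trend removed.

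Transcription factors known to act on sestrins and DDIT4, with their partners and the stress gene TRIB3, were counted as a group of their own. This group was listed with earlier results of these data known. Of 10 measured, 2 were higher and 5 lower in siPCIF1 cells, or 70% against 34.0% of all genes. All 7 also passed with the trend removed, where 25.1% of all genes did. ATF4, the main transcription factor of the integrated stress response and a known activator of SESN2 and DDIT4, had a log2 fold change of -1.28 (SE 0.14, p adjusted by DESeq2 = 1.07e-16) in the authors' deposited table. This is 41.1% of the siScramble level. DDIT3 (CHOP), CEBPB and the pseudokinase gene TRIB3 had log2 fold changes of -1.63, -1.63 and -1.57 in the authors' deposited table. These 4 were the only genes of the wider list that passed with the Wald statistics divided by their robust SD, where 0.972% of all genes did. HIF1A, whose protein is known to induce DDIT4 in hypoxia, rose by 0.76 on the log2 scale (SE 0.16, p adjusted by DESeq2 = 3.02e-05) in the authors' deposited table, so it was higher where DDIT4 was lower. TP73, a transcription factor, had a log2 fold change of 1.10 (SE 0.28, p adjusted by DESeq2 = 0.000828) in the authors' deposited table, at a mean normalised count of 26.4. FOXO3, a known regulator of SESN3, had a log2 fold change of 0.20 in the authors' deposited table (p adjusted by DESeq2 = 0.281) and did not pass. NFE2L2 and FOXO4 did not pass either, at log2 fold changes of -0.05 and 0.05 there (p adjusted by DESeq2 = 0.823 and 0.878). The part of any of these factors in the members' values was not tested.

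**Figure D4:**
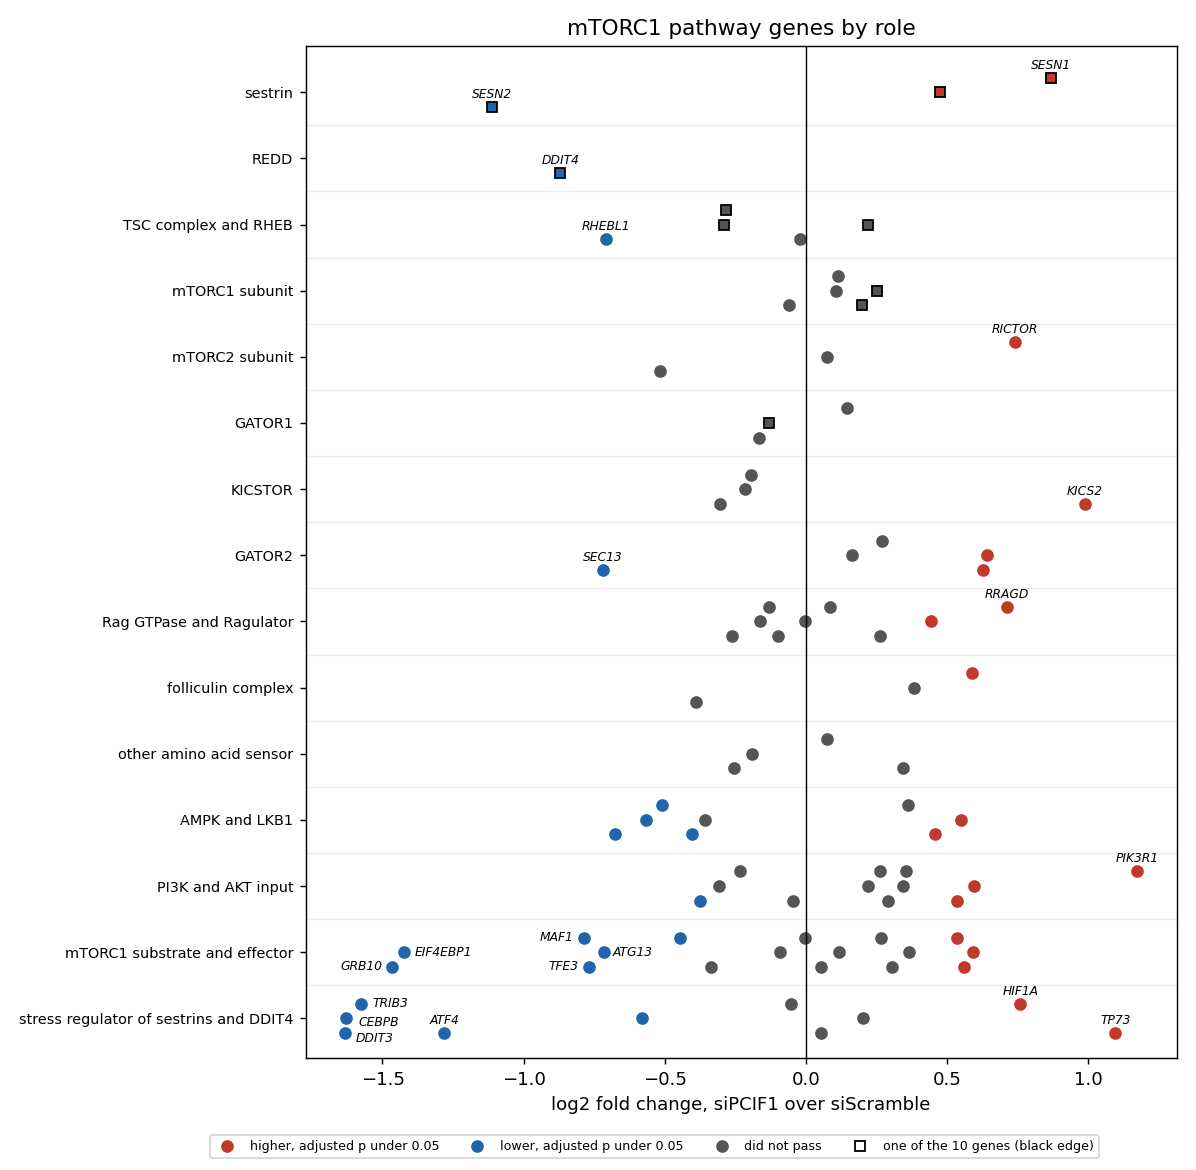
Log2 fold change, siPCIF1 over siScramble, of the 92 measured genes of the pathway list in the authors' deposited table, 1 point a gene and 1 row a role group, coloured by call and with squares for the 10 members. The 4 genes with the lowest values besides EIF4EBP1 and GRB10 are the stress regulators DDIT3, CEBPB, TRIB3 and ATF4, and the mTORC1 subunits lie between -0.06 and 0.25.

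The promoters of the 2 members that fell, SESN2 and DDIT4, are shown because both genes moved the same way. The 250 bases before each RefSeq start (GRCh38.p14) are written 5′ to 3′ on the gene's strand, with the letters ATTGG, which read CCAAT on the other strand, in capitals.
SESN2: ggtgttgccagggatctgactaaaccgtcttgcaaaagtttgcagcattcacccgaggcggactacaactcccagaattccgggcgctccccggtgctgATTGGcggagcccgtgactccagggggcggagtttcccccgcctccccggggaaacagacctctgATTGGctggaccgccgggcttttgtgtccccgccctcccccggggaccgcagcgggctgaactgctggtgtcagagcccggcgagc
DDIT4: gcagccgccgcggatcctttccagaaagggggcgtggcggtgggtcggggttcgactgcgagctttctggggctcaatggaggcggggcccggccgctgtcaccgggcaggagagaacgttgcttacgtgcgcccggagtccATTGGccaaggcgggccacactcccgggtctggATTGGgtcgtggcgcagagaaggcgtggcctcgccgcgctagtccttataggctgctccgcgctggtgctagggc
These stretches lie at chr1:28259268-28259517 and chr10:72273674-72273923, both on the plus strand. Each holds ATTGG at 2 places, which begin 151 and 86 bases before the start in SESN2 and 108 and 75 bases before it in DDIT4. All letters searched were chosen after these promoters had been seen. On either strand, 4 of the 10 members' entries nearest the GENCODE start hold ATTGG, those of SESN2, DDIT4, RHEB and MTOR, and 35.1% of the 14402 promoter entries of genes in the table do. RHEB and MTOR hold it without having passed the test, and 2 further RefSeq entries of SESN1, which rose, hold it 90 and 75 bases before their starts.

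The letters TGATGCAA, a form of the composite element to which ATF4 binds with a C/EBP partner, were searched on both strands of the same windows. They occur in 0.521% of the promoter entries of genes in the table. The match among the members was in TSC2, which did not pass, beginning 110 bases before the RefSeq start. It is shown with the matched letters in capitals (GRCh38.p14, chr16:2047864-2047893, plus strand).
TSC2: gccccgtcacgTGATGCAAggatcgccggc
No other entry of the 10 members holds these letters within 250 bases before and 50 after the start, which says only that this spelling is not in these windows. ACGTG, the core of the hypoxia response element, occurs in 3 of the 10 members' entries nearest the GENCODE start, those of DDIT4, TSC2 and RHEB, and in 25.5% of the entries of genes in the table. The palindrome CACGTG, which contains that core, occurs in TSC2 alone and in 9.38% of those entries.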

How the data were processed

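RNA-seq of 6 BE(2)-C samples (3 siPCIF1, 3 siScramble, all with ATRA) was analysed from 1 comparison table. Per the submitters' processing notes, which give no roles or settings, DESeq2, HTSeq and STAR 2.7.10a were used with hg38, as were cutadapt 3.7, bcl2fastq 2.20 and deepTools. Per the file headers, the authors' mean normalised count is a signal over all samples, and depth per library is not analysed here. The authors' log2 fold change and SE are log2 values. The deposited Wald statistic is a score. The p-value and adjusted p-value were deposited by the authors.

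The log2 fold change divided by its SE and the Wald statistic differed by up to 2.16, as under shrinkage, so folds understate low genes. Identifiers were matched to GENCODE 29 (13877 of 13885, 13271 with the same version). Computed here were 95% intervals (normal), counts per kilobase of the main transcript, and a spline regression on GC content, length and mean count. Benjamini-Hochberg adjustment was made again where an alternative changed the p-values or the genes tested. The tools were pandas 2.3.3, scipy 1.17.1, numpy 2.4.6 and matplotlib 3.10.9 under Python 3.11.15. Only the trend removal and the undoing of shrinkage were tested on simulated data, the former with noise equal to the SE and a linear GC trend. Sequences came from RefSeq (15 promoter entries for the 10 genes). Named genes were the 10 members, in each other role group up to 4 with the smallest adjusted p and any needed for a count of 5 or fewer, and PCIF1. The members and lists were chosen with earlier results of these data known. A gene of the stress regulator group is counted but its own values are not reported here.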

Additional observations from a re-analysis of the deposited data

How the results depend on the processing

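No paired analysis was possible because the table holds 1 comparison and no values per sample; for the same reason no replicate could be left out, and the depth per library is not known here. Of the 10 members, 4 passed as deposited, and 3 to 5 under every alternative except the Wald statistic divided by its robust SD. There 0 passed by the rescaled Wald test, and 2 had an unadjusted p under 0.05. RHEB was the fifth, at a threshold of 0.1. Of all genes 34.0% passed as deposited, 0.972% with the rescaled statistic and 11.0 to 41.7% under the other alternatives. The highest share, 41.7%, was where a mean count of at least 100 was required, and there 3 of the 8 members tested passed. SESN3 missed the threshold in 5 of its 10 alternatives, with log2 values between 0.08 and 0.52. SESN1, filtered out where a mean count of at least 100 was required, SESN2 and DDIT4 missed it only with the rescaled statistic. No member changed direction, which only centring on the median or removing the trend could have brought about. Of the single results, 89 stayed on their side of the threshold, 8 fell short of it and 1 gained it. Part of the 89 was fixed beforehand. Undoing shrinkage kept the deposited adjusted p, stricter criteria could not add a gene, and a looser threshold could not remove one. With shrinkage undone, SESN2 stood at -1.21, DDIT4 at -0.93 and SESN1 at 1.00. Of the 92 measured genes of the pathway list, 39 passed as deposited, 4 with the rescaled statistic and 18 against an absolute log2 change of 0.3. Under the other alternatives between 26 and 47 passed, with 78 tested where a mean count of at least 100 was required. With the trend removed 26 passed, 23 of them shared with the 39. The share of all genes was 11.0% against 0.3 and 22.9 to 41.7% under those other alternatives. The 4 with the rescaled statistic were all stress regulators, a group listed with earlier results known. The causes were not tested.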
